A study of Mus musculus with 12 samples.

Results

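Oocytes of mice without amphiregulin (Areg -/-) were compared at 2 stages of meiotic maturation, the germinal vesicle (GV) stage and metaphase II (MII), by the mRNA bound to their polysomes. The comparison takes the 6 Areg -/- arrays of the 12 in the series, 3 per stage, chosen by genotype and stage in the sample titles. The wild-type arrays at the same stages serve where a difference between genotypes is tested. In the main fit they also enter the pooled estimate of spread behind every standard error and p-value. All mice, wild type included, received PMSG, a gonadotropin that makes follicles grow. GV oocytes were taken 48 h later with no hCG, and MII oocytes 14 h after hCG, given in place of the ovulatory surge. The strain label is C57BL/6J 129Sv for both genotypes. The mutation is given as amphiregulin -/- with no driver or cell type named, and neither ages nor the number of animals or oocytes per sample were stated. The titles name biological replicates and the design text independent sample sets, and p-values rest on the spread among these samples alone.

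Amphiregulin is a growth factor of the EGF family, made by granulosa cells once ovulation is triggered, that acts on the cumulus cells around the oocyte. The full-grown GV oocyte is arrested in meiotic prophase and hardly transcribes, so the proteins made on the way to the MII egg come from stored mRNA that is recruited to ribosomes, released from them or degraded. Polysomes are mRNAs carrying several ribosomes, and the mRNA found there is taken as being translated. Arrays of the whole RNA pool were not analysed here, so ribosome loading and transcript amount cannot be told apart.

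Promoter sequences of 4 genes at the ends of the comparison are shown first, since the genes that fell are described below by letters in their promoters as well as by function. Each is the 250 bases before the RefSeq start of the gene (build GRCm38.p6), 5′ to 3′ on the gene's strand, from chr6:86016941-86017190 (+) for Figla, chr11:115403502-115403751 (+) for Mrpl58, chr15:79074973-79075222 (+) for Eif3l and chr1:44118774-44119023 (-) for Poglut2. Figla, Mrpl58 and Eif3l fell and Poglut2 rose. Capitals mark matches on either strand to any of 6 motifs. These are TATAAA for the TATA box, CCAAT for the box of that name, GGGCGG for the GC box, CCGGAAG for the core bound by ETS factors, CAGGTG for an E-box and the palindromic NRF1 site. The motifs and the 4 genes were chosen with the calls known, and no capital base belongs to more than 1 match.
Figla: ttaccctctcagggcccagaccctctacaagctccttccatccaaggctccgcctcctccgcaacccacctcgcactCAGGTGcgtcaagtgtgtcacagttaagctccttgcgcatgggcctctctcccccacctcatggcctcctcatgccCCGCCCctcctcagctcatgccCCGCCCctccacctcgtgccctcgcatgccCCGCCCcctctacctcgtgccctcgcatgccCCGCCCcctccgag
Mrpl58: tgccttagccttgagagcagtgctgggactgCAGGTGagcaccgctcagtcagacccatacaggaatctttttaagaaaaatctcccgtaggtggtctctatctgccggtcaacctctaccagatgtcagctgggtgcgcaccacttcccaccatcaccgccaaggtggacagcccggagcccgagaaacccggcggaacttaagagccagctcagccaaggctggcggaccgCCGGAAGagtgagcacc
Eif3l: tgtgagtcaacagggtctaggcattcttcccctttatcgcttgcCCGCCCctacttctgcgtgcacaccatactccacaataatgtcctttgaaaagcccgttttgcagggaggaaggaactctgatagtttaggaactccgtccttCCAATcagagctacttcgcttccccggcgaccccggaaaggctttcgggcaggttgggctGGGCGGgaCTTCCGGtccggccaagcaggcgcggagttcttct
Poglut2: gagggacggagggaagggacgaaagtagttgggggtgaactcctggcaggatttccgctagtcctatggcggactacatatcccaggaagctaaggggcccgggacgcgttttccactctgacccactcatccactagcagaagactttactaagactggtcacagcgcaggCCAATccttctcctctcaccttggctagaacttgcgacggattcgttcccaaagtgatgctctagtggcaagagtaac
Among the genes that fell, 2073 of 2522 had a promoter window in the RefSeq table, which runs from before to after the gene's start, and 519 of these windows (25%) held the ETS letters, against 9.12% of all 27025 windows of the same length. The other shares were 64.2% against 35.9% for the GC box, 41.9% against 37.9% for the CCAAT box, 7.53% against 14.2% for the TATA box, 19.4% against 20% for the E-box and 2.46% against 0.977% for the NRF1 letters. The windows of all genes include many that the array does not measure. Windows were found for 13096 of the 16579 genes tested, of which 14.0% held the ETS letters, 55.9% the GC box, 38.1% the CCAAT box, 9.83% the TATA box, 19.5% the E-box and 1.6% the NRF1 letters. Apart from the E-box and the CCAAT box, where all 3 shares are close, the tested genes lie between the fallen genes and all windows. Windows were found for 1714 of the 2150 genes that rose, 56.5% with the GC box and 11% with the ETS letters. Windows cover under 80% of the risen genes and of all genes tested. Their shares are therefore given as they stand, and no difference from the fallen genes was tested. The ETS letters stood in 20 of the 61 windows found for mitochondrial ribosomal proteins (32.8%) and in 6 of 38 for complex I (15.8%). These matches are a description and were not tested.

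Figla, Mrpl58 and the F-box gene Fbxw13 lost polysome-bound mRNA between GV and MII with the smallest p-values of the whole comparison, and losses were larger than gains. Over all 16579 genes, 4672 changed (28.2%), of which 2150 were higher (13%) and 2522 lower at MII (15.2%), by limma on the deposited log2 values with an adjusted p under 0.05. The median difference was 1.16 on the log2 scale among the genes that rose (quartiles 0.91 and 1.68) and -2.34 among those that fell (quartiles -3.18 and -1.71). A difference past 2 was reached by 333 of the risen genes (15.5%) and by 1574 of the fallen ones (62.4%), and past 4 by 2 and 255. The median difference of all genes was 0.30, and its median standard error (SE) 0.37. Risen genes had a median GV level of 5.67 and fallen genes 9.7, so the 2 sets started in different intensity ranges. The part of intensity in the sizes was not tested.

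**Figure D1:**
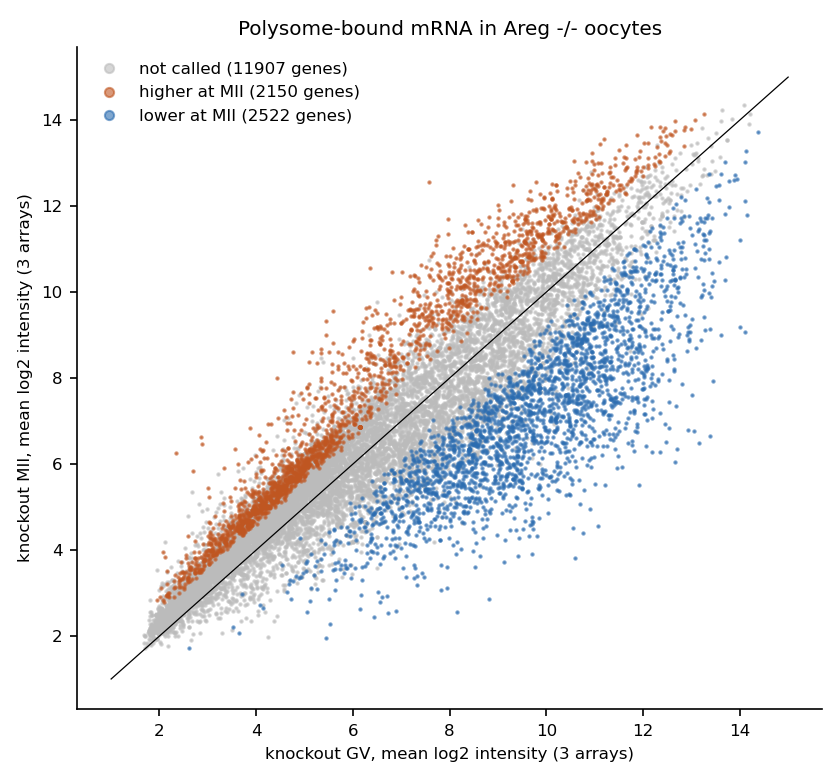
Mean log2 intensity of each of 16579 genes in Areg -/- GV oocytes (x axis) and MII oocytes (y axis), 3 arrays each, with the line of equal values and colours for the call by limma. The 2522 genes lower at MII reach farther from the line than the 2150 higher ones, and most risen genes at low intensity lie close to it.

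The stages also differed in the arrays themselves, which are called GV 1 to GV 3 and MII 1 to MII 3 after the replicate numbers in the titles. The interquartile range of log2 values was 4.72, 4.63 and 4.41 on the GV arrays and 4.02, 3.38 and 3.36 on the MII arrays, without overlap. The 3′ minus 5′ signal of the Actb control was 0.57, 0.13 and -0.55 against -0.65, -0.48 and -1.18, where GV 3 lies below MII 2 and the stages overlap. The Gapdh control overlapped too (1.91 to 3.33 at GV, 2.13 to 3.34 at MII). Arrays correlated across genes at 0.964 to 0.969 within GV, 0.922 to 0.928 within MII and 0.819 to 0.859 between the stages. With the interquartile range of each array as a covariate, 951 genes rose and 845 fell, so the counts in that fit are given beside each gene list below, as "with the spread covariate". The part of the Actb signal in the results was not tested.

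The call also varied with brightness. Among 5 brightness classes of equal size, 7.15% of genes rose and 0.513% fell in the dimmest, and in the brightest 20.5% rose and 31.4% fell. After a further quantile normalisation 36 of 3316 genes rose and 49 fell in the dimmest class, and 1060 rose and 794 fell in the brightest, so the excess of losses among bright genes did not hold there. Over all genes that setting gave 2501 higher and 1901 lower and shifted the median difference by -0.13, and the covariate shifted it by -0.35. Without the 2 MII arrays of narrowest range, MII 2 and MII 3, 892 genes rose and 1427 fell. The count of changed genes was 2882 without GV 1 and 3029 without GV 2, and the count of risen genes was 1004 without GV 1, 1080 without GV 2, 1280 without GV 3, 1407 without MII 2 and 1192 without MII 3.

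**Figure D2:**
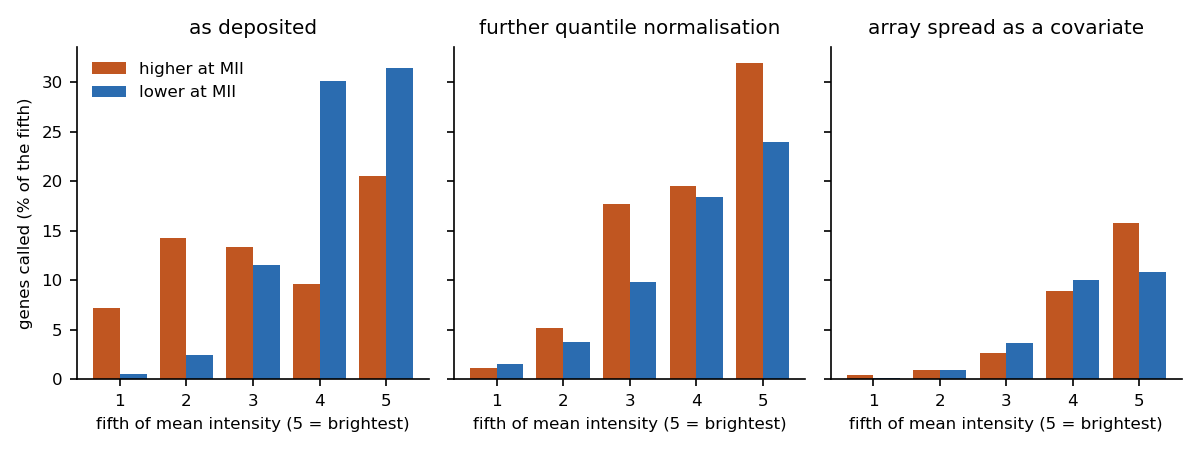
Share of genes called higher or lower at MII (y axis, % of the genes in each class) by class of mean intensity over all arrays (x axis, 5 is the brightest), for the deposited values, after a further quantile normalisation and with the spread covariate. Calls are few among dim genes in the last 2 panels, and the excess of losses in classes 4 and 5 of the first panel is absent from the second.

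The 10 genes with the smallest p that fell, and the 10 that rose, each by at least 1 on the log2 scale and with GV and MII arrays that did not overlap, kept their calls under all 15 alternatives. Figla, a basic helix-loop-helix factor that switches on zona pellucida genes in the growing oocyte, measured 11.41, 11.43 and 11.54 at GV and 5.86, 5.77 and 6.06 at MII. The groups lie far apart, and the loss was 5.56 ± 0.22 (SE, n = 3 arrays per stage), 47.3-fold, with adjusted p = 7.2e-07 by limma. Each SE here and below is limma's, from the spread pooled over all 12 arrays in 4 groups and moderated across genes. It is not the spread of the 3 arrays of a stage alone. Mrpl58, a peptidyl-tRNA hydrolase of the mitochondrial ribosome, measured 11.23, 11.18 and 11.20 at GV and 6.61, 6.63 and 6.81 at MII, a fall of 4.52 ± 0.20. Fbxw13, an F-box gene, went from 11.88, 11.62 and 11.83 to 6.65, 6.33 and 6.61. Every MII value of these genes lay more than 4 log2 units under every GV value. Of the others, the ribosomal protein gene Rps24 fell by 4.27 ± 0.24, Mcee, an epimerase of propionate breakdown, fell by 5.94 ± 0.34 and Ndufs7, an iron-sulfur subunit of complex I, fell by 5.64 ± 0.33. Uimc1, which brings a BRCA1 complex to ubiquitin at DNA breaks, fell by 5.07 ± 0.31, Elp3, the catalytic subunit of the tRNA-modifying Elongator complex, fell by 3.55 ± 0.22 and the initiation factor gene Eif3l fell by 3.94 ± 0.26. Adjusted p by limma was at most 1.5e-05 for all 10.

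The genes at the other end had smaller gains. Poglut2, an enzyme that adds glucose to proteins in the endoplasmic reticulum, measured 7.16, 6.57 and 7.29 at GV and 10.63, 10.31 and 10.45 at MII, a gain of 3.46 ± 0.29, or 11-fold. Uba3, the catalytic subunit of the enzyme that activates the ubiquitin-like NEDD8, rose from 8.89, 8.21 and 8.0 to 11.52, 11.31 and 11.35. Slc4a7, a bicarbonate cotransporter, rose from 6.45, 6.30 and 6.43 to 9.82, 9.10 and 9.48. In all these genes the stages were separate, as the choice required, with the lowest MII array over 2 log2 units above the highest GV array. Ireb2, an iron-responsive RNA-binding protein, rose by 2.72 ± 0.26, the replacement histone gene H3f3b by 2.69 ± 0.27, Ing3, a subunit of a histone acetyltransferase complex, by 2.53 ± 0.26 and Atl2, which shapes endoplasmic reticulum tubules, by 2.41 ± 0.25. Mansc1 (2.21 ± 0.23), the DNA damage sensor gene Ddb2 (2.19 ± 0.22) and Atad1 (2.08 ± 0.21), an ATPase that pulls misplaced proteins from the mitochondrial outer membrane, complete the 10. Their adjusted p by limma lay between 4.2e-05 and 1.0e-04.

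**Figure D3:**
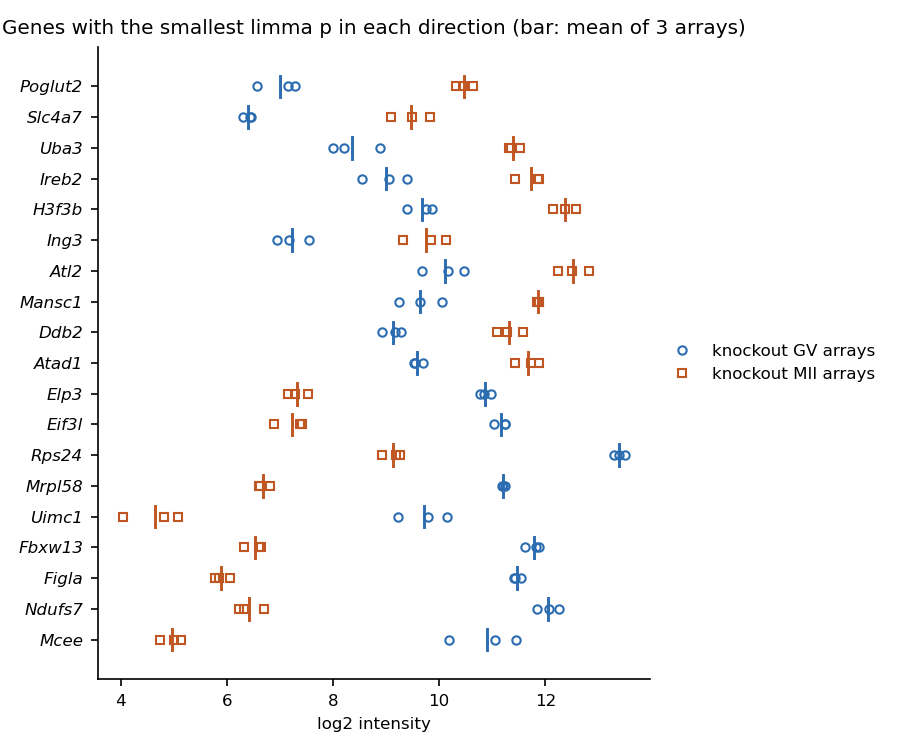
Log2 intensity (x axis) of genes with the smallest p in each direction (10 that rose and 9 that fell) on each of the 3 knockout GV arrays (circles) and 3 knockout MII arrays (squares), with a bar at each mean. Genes were chosen for stages that do not overlap and a difference of at least 1, so every row is separate by that rule. The falls (Figla 5.56, Mcee 5.94) are larger than the gains (Poglut2 3.46).

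Genes of mitochondrial energy supply fell as a group with few exceptions. Of 44 measured subunits and assembly partners of respiratory complex I, which passes electrons from NADH to ubiquinone, 0 rose and 37 fell (0 and 19 with the spread covariate), with a median of -3.72 against 0.30 for all genes. Between 34 and 36 fell without any 1 knockout array, and 40 had stages that did not overlap (19.9% of all genes did so downwards). Ndufa8 measured 11.50, 11.69 and 11.28 at GV and 7.25, 7.75 and 7.34 at MII, and Ndufa9 measured 11.75, 11.94 and 12.03 against 4.61, 5.25 and 6.69. Both pairs of groups are well apart, although the MII arrays of Ndufa9 spread over 2 log2 units. Of 39 subunits of complexes II to V, 0 rose and 31 fell (0 and 23), with a median of -3.21. Sdhd, a membrane anchor of succinate dehydrogenase, fell by 4.25 ± 0.31, Cox6a1 of cytochrome c oxidase fell by 2.51 ± 0.20 and Atp5o of ATP synthase fell by 5.96 ± 0.49.

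The mitochondrial ribosome and import machinery followed with exceptions in both. Of 70 mitochondrial ribosomal proteins 2 rose and 51 fell (1 and 25 with the spread covariate, 1 and 31 without the narrow MII arrays). Mrps18c measured 11.48, 11.47 and 12.52 at GV and 6.73, 6.27 and 5.89 at MII, a fall of 5.52 ± 0.37, and Mrps28 fell by 3.79 ± 0.31. Against them Mrpl3, a protein of the large subunit, rose from 7.88, 8.36 and 7.87 to 10.62, 9.93 and 10.70. The stages of Mrpl3 do not overlap, and its gain of 2.38 ± 0.38 kept its call in every setting. The other risen member, Mrps2, lost its call with the spread covariate and without either GV 2 or MII 3. Of 27 genes of mitochondrial protein import and folding 2 rose and 17 fell (2 and 7), and 11 fell without GV 3. The small intermembrane chaperone genes Timm9 and Timm10b fell by 2.95 ± 0.32 and fell by 4.63 ± 0.54, and Hspe1, partner of the matrix chaperonin, fell by 2.05 ± 0.22. Without any 1 knockout array 0 or 1 rose, and the risen Timm21 and Tomm34 lost their calls without single arrays (Timm21 without GV 1, GV 3, MII 1 or MII 3, Tomm34 without GV 2, GV 3, MII 2 or MII 3 and with the spread covariate).

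Enzymes of carbon metabolism fell at more than the share of all genes and rose near it, and those of peroxide removal were lower in part. Of 34 enzymes of glycolysis, the TCA cycle and the pentose phosphate pathway 5 rose (14.7%) and 18 fell (52.9%). The shares of all genes were 13% and 15.2%. With the spread covariate 2 rose and 7 fell, and 3 rose without GV 1, GV 3 or MII 2. Mdh2, mitochondrial malate dehydrogenase, fell by 3.88 ± 0.31, Idh3b, a regulatory subunit of the NAD-linked isocitrate dehydrogenase, fell by 5.02 ± 0.50 and Sucla2 of succinyl-CoA ligase fell by 2.35 ± 0.27. Idh1, the cytosolic NADP-linked isocitrate dehydrogenase, went the other way, from 7.92, 7.59 and 7.24 to 10.25, 10.76 and 10.16. Its gain of 2.81 ± 0.34 kept its call in every setting. Of 22 peroxiredoxins and antioxidant enzymes 0 rose (1 without MII 1) and 12 fell (0 and 7 with the covariate), and of the 6 peroxiredoxins, which reduce peroxides, 5 fell. Prdx3, the mitochondrial one, measured 10.24, 10.06 and 10.22 at GV against 4.96, 5.92 and 5.95 at MII, Prdx5 fell by 4.01 ± 0.29 and Prdx2 fell by 2.16 ± 0.24.

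The cytosolic translation apparatus lost polysome-bound mRNA too. Of 24 measured ribosomal proteins of the cytosol, 0 rose and 16 fell (0 and 13 with the spread covariate), and 16 fell without any 1 knockout array. Rps24 (-4.27 ± 0.24) and Rpl14 (-3.63 ± 0.27) were among those that fell. Ribosomal protein genes have many processed pseudogenes, so probe sets for them may read more than 1 copy. Of 62 genes taken by the name pattern of initiation and elongation factors 3 rose and 29 fell (1 and 13), with a median of -1.26. The risers were the initiation factor gene Eif4a1 and 2 kinase genes of eIF2, Eif2ak1 and Eif2ak3, which are not factors themselves. Each lost the call with the spread covariate, where the 1 that rose is another gene. Without GV 1 or MII 3 0 rose, and 1 without GV 2 or GV 3. The losses were dense in eIF3, the scaffold that joins mRNA to the small ribosomal subunit, of whose 12 measured subunits 0 rose and 10 fell, with a median of -2.94. Eif3f measured 11.78, 11.60 and 11.58 at GV and 7.42, 7.03 and 6.39 at MII, and Eif3m fell by 4.03 ± 0.34. Of the 8 subunits of eIF2 and eIF2B 2 fell. Of 40 aminoacyl-tRNA synthetases, which charge tRNAs, 0 rose (1 without MII 2) and 12 fell (0 and 4), 7 without GV 1 or GV 2, with Rars at -3.33 ± 0.44 and Sars at -2.85 ± 0.43 in the fit of all arrays.

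Protein folding and breakdown genes were lower in part. Of 43 proteasome subunits 3 rose and 22 fell (1 and 14 with the spread covariate), and 20 to 23 fell without any 1 knockout array. Psma6 measured 12.31, 12.27 and 11.97 at GV and 8.85, 8.08 and 7.95 at MII, Psmd6 fell by 4.23 ± 0.36 and Psma7 fell by 2.73 ± 0.22. Among the risen members was Psme4, a proteasome activator, at 1.11 ± 0.28, a call lost without GV 2 or GV 3, and 1 member rose without either array. Of 31 ubiquitin-conjugating enzymes 2 rose and 9 fell (2 and 2). Ube2e2 fell by 3.48 ± 0.37 and kept its call in every setting. Without 1 array 0 to 3 rose, and the risen Ube2h and Ube2n lost their calls in many settings. Ube2n had overlapping stages and lost its call with the spread covariate, and Ube2h lost its call without GV 1, GV 3, MII 1 or MII 2. Of 74 chaperones 7 rose and 28 fell (3 and 12), and 2 to 9 rose without 1 array, 3 without GV 1 or MII 3 and 2 without GV 2. The chaperonin CCT, which folds actin and tubulin, had 9 measured subunits, of which 0 rose and 6 fell, and Cct5 measured 11.84, 11.62 and 11.59 against 7.61, 7.93 and 8.76. Dnajc15, a J-protein of the mitochondrial inner membrane, fell by 5.40 ± 0.39, and Dnajc3, an inhibitor of eIF2 kinases, rose by 1.58 ± 0.28.

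**Figure D4:**
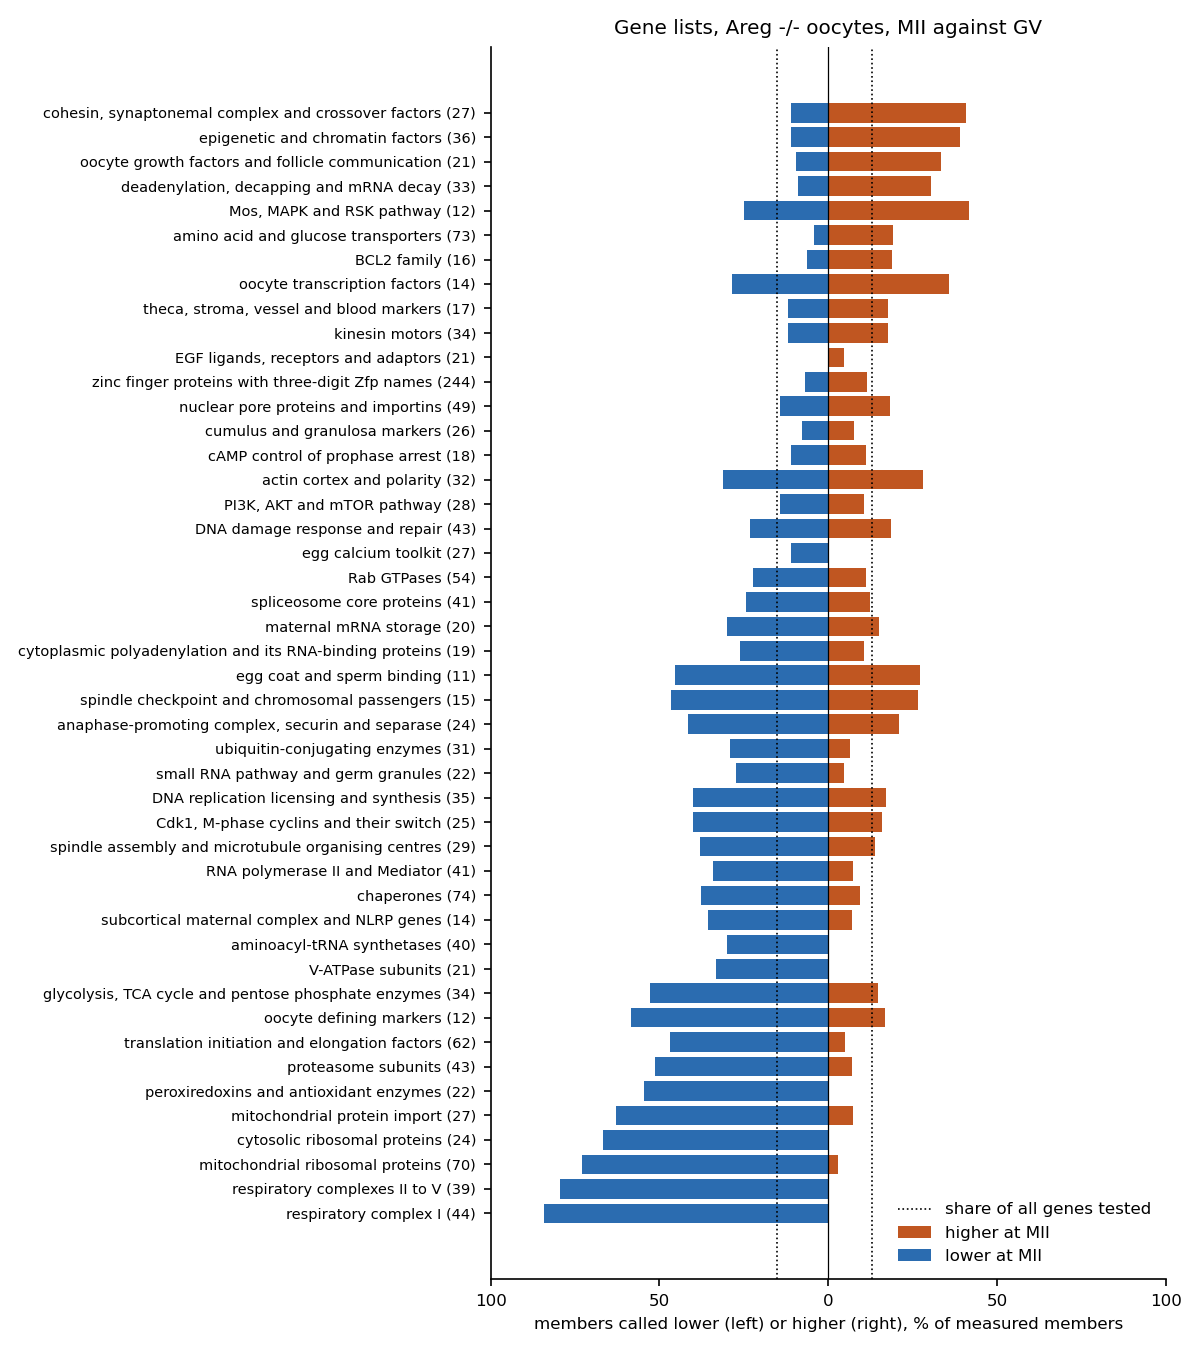
Share of the measured members of each of 46 gene lists called lower (left, blue) or higher (right, orange) at MII in Areg -/- oocytes, with member numbers in brackets and dotted lines at the shares over all genes tested (15.2% and 13%). Respiratory complex I has the largest share of fallen members (84.1%), and the Mos, MAPK and RSK list the largest share of risen ones (41.7%).

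Cell cycle genes that carry the oocyte through meiosis moved in opposite directions within single complexes. Cdk1 with a B-type cyclin drives entry into M phase. Ccnb1, the cyclin, measured 10.83, 11.06 and 10.94 at GV and 12.98, 12.97 and 13.16 at MII, while Cdk1, the kinase, measured 12.18, 12.03 and 12.27 against 8.17, 8.26 and 7.62. Neither pair of groups overlaps, and the partners were apart by sign, with Ccnb1 at 2.09 ± 0.26 (adjusted p = 2.5e-04 by limma) and Cdk1 at -4.15 ± 0.36 (adjusted p = 4.6e-05 by limma). Cdc25b, the phosphatase that activates Cdk1, fell by 4.11 ± 0.45. In the whole list of 25 genes 4 rose (16%) and 10 fell (40%), against 13% and 15.2% of all genes (3 and 2 with the spread covariate). Without GV 2, GV 3 or MII 1, 2 rose. Ensa, a phosphatase inhibitor, fell by 4.25 ± 0.64, a call lost with the spread covariate (-3.30). The inhibitory kinase gene Wee2 measured 11.33, 10.95 and 10.77 at GV and 11.75, 11.67 and 11.68 at MII, a difference of 0.68 ± 0.23 with adjusted p = 0.044 by limma, a call lost without any 1 of GV 2, GV 3 and the MII arrays. Plk1, a mitotic kinase, had overlapping stages (10.75, 10.53 and 11.37 against 9.09, 8.65 and 10.54), and its call was lost without any 1 knockout array but MII 3.

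The anaphase-promoting complex (APC/C), a ubiquitin ligase that ends M phase, had the same mixture. Of its 14 core subunits 4 rose and 8 fell. Cdc27 rose from 9.63, 10.02 and 9.25 to 11.70, 11.28 and 11.86, and Anapc10 by 2.39 ± 0.38. Anapc7 fell from 10.24, 10.70 and 10.40 to 6.43, 6.20 and 7.70, and Cdc16 fell by 3.71 ± 0.47. The activator gene Cdc20 rose from 9.81, 10.64 and 9.42 to 11.96, 12.22 and 12.45. Fbxo43, the APC/C inhibitor that holds the egg at MII, measured 4.37, 5.07 and 4.22 at GV and 6.98, 4.74 and 7.29 at MII. Its stages overlapped through MII 2, and the difference of 1.79 ± 0.66 had adjusted p = 0.064 by limma, and passed without MII 2. With securin, separase and regulators, 5 of 24 rose and 10 fell (3 and 2).

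Kinetochore and spindle genes split the same way. Of the 4 subunits of the NDC80 complex, the rod that ties kinetochores to microtubules, Nuf2 and Ndc80 rose while Spc24 and Spc25 fell. Nuf2 measured 9.74, 9.43 and 10.04 at GV and 11.59, 10.79 and 11.12 at MII, and Ndc80 measured 9.04, 9.47 and 8.88 against 11.14, 11 and 10.92. Spc24 measured 12.26, 11.97 and 12.05 against 8.83, 6.91 and 6.95, and Spc25 measured 10.99, 10.35 and 10.24 against 7.29, 4.99 and 6.29. None of the 4 overlapped between stages, and the call of Ndc80 (1.89 ± 0.41) was lost with the spread covariate (1.76) and without the narrow MII arrays. This complex, like eIF3, CCT, augmin, the peroxiredoxins and the APC/C core, was set apart after values were seen. In the list of 29 spindle assembly genes 4 rose (13.8%) and 11 fell (37.9%), against 13% and 15.2% of all genes (2 and 5 with the spread covariate). Among them were Prc1, which bundles midzone microtubules, up by 2.34 ± 0.27, and Tacc3 of the spindle pole, which fell by 2.91 ± 0.28. Of the 8 augmin subunits, which branch microtubules, 0 rose and 5 fell.

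Of 15 genes of the spindle checkpoint and chromosomal passenger complex 4 rose and 7 fell (1 and 2 with the spread covariate), and 4 fell without GV 1 or GV 2. Mad2l1bp, which dismantles checkpoint complexes, rose from 7.42, 7.05 and 7.33 to 10.50, 9.80 and 10.88. The passenger subunit Birc5 fell by 3.53 ± 0.32, and Zw10, which recruits dynein to kinetochores, went from 10.68, 10.50 and 10.63 to 6.93, 5.04 and 6.27. Of 34 kinesin motors 6 rose (17.6%) and 4 fell (11.8%), against 13% and 15.2% of all genes (5 and 0 with the spread covariate). Only 2 fell without GV 1, GV 2, MII 2 or MII 3. Kif11, which slides spindle microtubules apart, rose by 1.17 ± 0.23, and Kif21a went from 4.58, 4.54 and 4.99 to 6.82, 7.43 and 6.62.

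Genes of the actin cortex, which moves the spindle to the egg's edge, included large changes both ways. Prkci, a polarity kinase, rose from 6.43, 6.93 and 5.68 to 11.10, 9.93 and 10.62, a gain of 4.20 ± 0.47. Spire1, an actin nucleator needed for spindle positioning, rose by 1.76 ± 0.24 and Actr2 of the Arp2/3 complex by 1.77 ± 0.26. The actin-binding profilin gene Pfn2 fell from 11.45, 11.10 and 9.69 to 5.22, 3.91 and 4.08, and Arpc3, another Arp2/3 subunit, fell by 2.36 ± 0.24. Over the list 9 of 32 rose and 10 fell (6 and 4), and 5 rose without GV 2.

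The Mos pathway holds the egg at MII through MAP kinase. Of its 12 measured genes 5 rose and 3 fell (4 and 1 with the spread covariate), and 3 rose without GV 3 or MII 2. Mos measured 11.35, 11.72 and 11.85 at GV and 12.98, 12.92 and 13.42 at MII, and the kinase gene Rps6ka5 rose by 1.89 ± 0.35. Further down the cascade Map2k2, a MAP kinase kinase, fell by 1.64 ± 0.30. Of 18 genes of the cAMP control of prophase arrest 2 rose (11.1%) and 2 fell (11.1%), against 13% and 15.2% of all genes (2 and 1 with the spread covariate). Without any 1 knockout array 0 or 1 rose. The risers Prkar1b, a regulatory subunit of protein kinase A, and Pde3a both lost their calls with the spread covariate (0.16 and 0.83), where the 2 that rose are other genes. Gnas, the stimulatory G protein, fell by 2.27 ± 0.28. Pde3a, the oocyte's cAMP phosphodiesterase, was at 0.89 ± 0.28, a call lost without any 1 knockout array.

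Genes that act on mRNA tails and caps were higher in part. Of 33 genes of deadenylation, decapping and decay 10 rose and 3 fell (9 and 0 with the spread covariate), and 9 to 11 rose without any 1 knockout array, while 1 fell without GV 1, GV 2 or GV 3. Pan2, a poly(A) nuclease subunit, rose from 10.23, 10.43 and 9.93 to 12.59, 12.34 and 12.54, Dcp1a, a decapping cofactor, by 1.99 ± 0.24 and Cnot7, a CCR4-NOT deadenylase, from 10.45, 10.36 and 10.48 to 12.49, 12.16 and 12.58. Btg4, the adaptor that brings this deadenylase to maternal mRNA, rose from 12.06, 12.49 and 12.69 to 13.74, 13.78 and 13.70. All 4 had separate stages and kept their calls in every setting. Cnot10, another CCR4-NOT subunit, fell by 3.40 ± 0.61, a call lost with the spread covariate, where the difference was -3.06 (adjusted p = 0.11 by limma), and without the narrow MII arrays.

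Genes that store mRNA or lengthen its tail rose at a share near that of all genes and fell at a higher one. Of 19 genes of cytoplasmic polyadenylation 2 rose (10.5%) and 5 fell (26.3%), against 13% and 15.2% of all genes. With the spread covariate 3 rose and 1 fell. Dazl, which activates translation of stored mRNA, rose from 9.71, 9.96 and 9.52 to 11.57, 11.35 and 11.59, and Cpeb1, which binds the cytoplasmic polyadenylation element, fell from 11.42, 11.23 and 11.50 to 9.67, 9.33 and 9.51. The second riser, Pum2, lost its call without GV 2, GV 3, MII 1 or MII 2. Of 20 genes of maternal mRNA storage 3 rose (15%) and 6 fell (30%), 2 and 2 with the spread covariate, and 1 rose without GV 3. Eif4enif1, which keeps eIF4E from the cap, went from 12.22, 12.13 and 12.18 to 10.45, 10.24 and 10.18. Fxr2, an RNA-binding protein, fell by 3.45 ± 0.33 and Patl2, a decay and storage factor of oocytes, fell by 2.41 ± 0.35, the latter call lost with the spread covariate (-2.04). Of 22 small RNA and germ granule genes 1 rose (4.55%) and 6 fell (27.3%), 1 and 2 with the spread covariate, and 2 rose without MII 1. Ago3 was at 2.31 ± 0.47 and the microRNA-processing nuclease gene Drosha at -3.01 ± 0.36.

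Chromatin genes were higher in part. Of 36 epigenetic factors 14 rose and 4 fell (6 and 0 with the spread covariate, 5 and 2 without the narrow MII arrays), and 9 rose without GV 1. Sin3a, the scaffold of a histone deacetylase complex, measured 11.07, 11.03 and 11.28 at GV and 12.43, 12.38 and 12.86 at MII, and Kdm6a, a histone demethylase, rose by 1.74 ± 0.33. The deacetylase gene Hdac2 fell by 2.22 ± 0.31, a call lost with the spread covariate (-1.73). Fewer fell without GV 1, GV 2, GV 3 or MII 3 (2 to 5 over the single arrays left out).

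Of 27 cohesin, synaptonemal and crossover genes 11 rose and 3 fell (7 and 1 with the spread covariate), and 1 fell without GV 2. Stag2, a cohesin subunit, rose from 6.99, 6.19 and 5.88 to 9.38, 8.03 and 8.87, Esco1, which acetylates cohesin, by 1.32 ± 0.25 and Dmc1, the meiotic recombinase, by 1.51 ± 0.28. Syce2 of the synaptonemal central element fell by 1.45 ± 0.22. Sycp1, which spans the synaptonemal complex, measured 7.42, 7.73 and 7.64 at GV and 6.27, 6.19 and 2.75 at MII, and its call was lost without any 1 GV array or MII 3.

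DNA replication genes, whose products serve the first embryonic S phases, included single genes that changed either way. Of 35, 6 rose (17.1%) and 14 fell (40%), against 13% and 15.2% of all genes (3 and 2 with the spread covariate). Without GV 1, 3 rose, and 7 or 8 fell without GV 1, MII 2 or MII 3. Orc6 of the origin recognition complex rose from 9.87, 10.56 and 10.16 to 12.52, 12.38 and 12.58, and Cdc45, a helicase cofactor, by 2.26 ± 0.33. Rpa2, a single-strand binding protein, fell from 11.88, 10.53 and 10.56 to 5.63, 6.38 and 6.51, and the clamp loader gene Rfc2 from 10.40, 10.19 and 10.23 to 5.50, 5.31 and 5.32. Neither overlaps between stages. Of 43 repair genes 8 rose (18.6%) and 10 fell (23.3%), against 13% and 15.2% of all genes (2 and 2 with the spread covariate). Without GV 1, GV 2 or MII 3 the risen count was 4 or 5. Trp53bp1, which marks double-strand breaks, rose by 1.43 ± 0.19, and the single-strand break scaffold gene Xrcc1 fell by 2.19 ± 0.30.

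Genes of nuclear transport, splicing and transcription were called in both directions. Only nuclear pore and importin genes rose at more than the share of all genes. Of 49 nuclear pore and importin genes 9 rose (18.4%) and 7 fell (14.3%), against 13% and 15.2% of all genes (6 and 1 with the spread covariate). Only 4 fell without GV 1 or GV 3. Ipo8, an importin, rose by 1.46 ± 0.20 and the pore gene Nup54 by 1.55 ± 0.28. Of 41 spliceosome proteins 5 rose (12.2%) and 10 fell (24.4%), against 13% and 15.2% of all genes (5 and 5 with the spread covariate). Without GV 3, 6 fell. Snrpb2 was at 1.47 ± 0.27 and Lsm4 at -2.98 ± 0.37. Of 41 genes of RNA polymerase II and Mediator 3 rose (7.32%) and 14 fell (34.1%), against the same shares (4 and 4). Without MII 3, 5 rose. Polr2i measured 12.34, 12.53 and 12.29 at GV and 7.42, 8.87 and 7.99 at MII, while Med31 of Mediator rose by 2.22 ± 0.32. Of 244 zinc finger genes named Zfp with a 3-digit number 28 rose (11.5%) and 17 fell (6.97%), both under the shares of all genes (21 and 5 with the spread covariate). Without any 1 GV array 14 to 17 rose. Zfp957 rose from 9.62, 9.78 and 8.50 to 12.70, 12.15 and 12.64, and Zfp708 by 3.97 ± 0.48.

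Genes that define the oocyte changed as well. Of 12 defining markers 2 rose and 7 fell (2 and 4 with the spread covariate), and their median level per array was 12.96 to 13.38 at GV and 11.97 to 12.19 at MII, so both stages carry the labelled cell type's mRNA. The egg coat gene Zp3 fell from 14.06, 14.09 and 14.14 to 11.71, 12.01 and 12.60, and Zp1 fell by 1.90 ± 0.21. Cd9, a membrane protein needed for sperm fusion, fell by 3.52 ± 0.51. The oocyte-secreted factors Gdf9 and Bmp15, which act on cumulus cells, did not pass. Gdf9 measured 14.26, 14.13 and 14.19 at GV and 13.84, 13.78 and 14.11 at MII, a difference of -0.28 (95% interval -0.71 to 0.15), and Bmp15 differed by -0.47 (-0.96 to 0.01). Their stages do not overlap by array, yet adjusted p by limma was 0.27 and 0.12.

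Of 21 growth factor and follicle communication genes 7 rose and 2 fell (5 and 2 with the spread covariate), and 4 rose without GV 1, GV 2 or MII 3. Acvr1, a BMP receptor, rose from 5.78, 5.95 and 5.36 to 9.05, 8.60 and 8.18, and Gja4, the oocyte's gap junction protein towards the cumulus, fell by 2.26 ± 0.31. Related secreted proteins diverged, with Oosp2 at -1.99 ± 0.28 and Oosp1 at 0.94 ± 0.18, the latter lost with the spread covariate (0.88). The receptor gene Kit measured 9.09, 8.87 and 8.85 against 10.01, 8.51 and 8.86, with overlap and no call, and its difference of 0.19 turned to -0.25 without MII 1.

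Of 14 oocyte transcription factors 5 rose (35.7%) and 4 fell (28.6%), against 13% and 15.2% of all genes (2 and 2 with the spread covariate). Without GV 1, GV 2 or MII 3, 3 rose. Nobox, an oocyte homeobox factor, went from 12.80, 12.98 and 13.10 to 9.16, 8.05 and 9.48, alongside Figla, while Obox5, another homeobox gene, rose from 10.91, 11.26 and 10.33 to 13.03, 12.82 and 13.22 and Sohlh2 by 2.16 ± 0.33. Of 14 genes of the subcortical maternal complex and its NLRP relatives 1 rose (7.14%) and 5 fell (35.7%), against 13% and 15.2% of all genes. With the spread covariate 0 rose and 2 fell, and 3 fell without GV 1 or MII 3. These genes are bright, with a median level per array of 12.29 to 12.37 at GV, and 31.4% of genes in the brightest class fell. Khdc3 fell from 9.85, 10.05 and 10.10 to 5.91, 6.28 and 7.37, and Tle6 fell by 1.32 ± 0.22. The riser, Nlrp4c, had overlapping stages and lost its call without GV 2, GV 3, MII 1 or MII 2. Of 11 egg coat and sperm-binding genes 3 rose (27.3%) and 5 fell (45.5%), against the same shares of all genes (3 and 4 with the spread covariate). Without GV 1, GV 3, MII 1 or MII 2, 1 rose, and the integrin gene Itga6 (1.25 ± 0.28) kept its call in all settings. Of 27 genes of the calcium toolkit that triggers egg activation 0 rose and 3 fell (11.1%), against 13% and 15.2% of all genes (1 and 1 with the spread covariate). Without GV 2, GV 3 or MII 3 1 fell, and 2 rose without MII 1. Itpr1, the calcium release channel, measured 9.82, 9.14 and 9.50 against 10.76, 9.39 and 9.87 and did not pass (0.52 ± 0.38), though it passed after a further quantile normalisation and with the spread covariate.

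Cell-surface, trafficking and survival genes were mixed. Of 73 amino acid and glucose transporters 14 rose and 3 fell (8 and 0 with the spread covariate), and 7 to 9 rose without GV 1, GV 2 or MII 3. Slc3a2, the heavy chain of several amino acid exchangers, rose from 10.76, 10.57 and 10.24 to 12.71, 12.10 and 12.49, and Slc7a8, one of its light chains, from 5.47, 5.11 and 5.40 to 8.07, 7.58 and 8.35. Both partners rose by limma in every setting. Of 54 Rab GTPases, which steer vesicles, 6 rose (11.1%) and 12 fell (22.2%), against 13% and 15.2% of all genes (1 and 2 with the spread covariate). Without GV 1, GV 2, MII 2 or MII 3 the risen count was 1 to 3. Rab8b rose by 1.69 ± 0.30 and Rab29 fell by 2.86 ± 0.31. Of 21 subunits of the V-ATPase proton pump 0 rose and 7 fell, but 0 and 0 with the spread covariate, and 1 or 2 rose without MII 1 or MII 3. Atp6v1f measured 12.42, 11.79 and 11.82 against 6.40, 8.97 and 6.14. Of 16 BCL2 family genes 3 rose (18.8%) and 1 fell (6.25%), against 13% and 15.2% of all genes (1 and 0 with the spread covariate). The risen count was 1 without GV 2, MII 2 or MII 3 and 5 without MII 1. Bcl2l11, a death-promoting member, rose by 1.55 ± 0.35 and kept its call in every setting, and Bcl2l2 (0.86) turned to -0.10 with the spread covariate.

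The EGF system, to which the missing ligand belongs, was read at low intensity. Areg measured 2.40, 2.60 and 2.47 at GV and 2.45, 2.55 and 3.03 at MII, and 2.08 to 2.70 and 2.59 to 2.94 in wild type. These values overlap between genotypes and stages, so the genotype labels cannot be checked by them. Of 21 EGF ligands, receptors and adaptors 1 rose and 0 fell (1 and 0 with the spread covariate), and the riser, Nrg2, lost its call without any 1 of the GV arrays or MII 3 and with the spread covariate (0.99 became 0.35), where the 1 that rose is another gene. Without MII 1 and MII 2 in turn 4 and 3 rose. With all arrays the shares were 4.76% risen and 0% fallen, under the 13% and 15.2% of all genes. The receptor gene Egfr measured 8.45, 8.39 and 8.10 at GV and 8.06, 8.27 and 8.0 at MII (-0.21 ± 0.25), and Erbb2 measured 5.06, 4.58 and 4.59 against 5.01, 5.36 and 5.57 (0.57 ± 0.28). Neither passed, and both signs turned under other settings, Egfr after a further quantile normalisation (0.48) and with the mean of its probe sets (0.43) and Erbb2 with the spread covariate (-0.08).

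PI3K, AKT and mTOR signalling links growth factor receptors to translation. Of 28 genes 3 rose (10.7%) and 4 fell (14.3%), against 13% and 15.2% of all genes (4 and 3 with the spread covariate). The risen count was 0 without GV 2 and 1 without MII 1. Rps6, a ribosomal protein phosphorylated downstream of mTOR, fell from 6.84, 6.18 and 6.85 to 3.44, 3.69 and 4.30. The difference of Rps6kb2, a kinase of that step, was -1.60 ± 0.29. Mtor measured 8.95, 8.69 and 9.61 against 9.70, 9.74 and 10.02 and did not pass (0.73 ± 0.31, adjusted p = 0.089 by limma), and it passed after a further quantile normalisation, with the replicate block and without GV 3. Il7, a cytokine gene, rose from 7.66, 8.12 and 7.51 to 10.95, 10.26 and 10. Tpx2, a spindle assembly factor, measured 9.65, 9.27 and 9.23 against 10.03, 9.62 and 10.54, with overlap and adjusted p = 0.10 by limma, and a further quantile normalisation brought it past the threshold (1.17, adjusted p = 0.024 by limma).

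Markers of the cells around the oocyte were called in both directions. Among 26 markers of cumulus and granulosa cells 2 rose (7.69%) and 2 fell (7.69%), against 13% and 15.2% of all genes (1 and 3 with the spread covariate), and the risen count was 1 without GV 2, 5 without MII 1 and 4 without MII 2. Their median level per array was 3.99 to 4.81 at GV and 4.04 to 4.73 at MII. Serpine2, a protease inhibitor of cumulus cells, rose by 0.87 ± 0.21, a call lost with the spread covariate (0.95) and without the narrow MII arrays, and Kitl, the granulosa ligand of Kit, rose by 1.63 ± 0.45, a call lost without GV 2 or GV 3 and after a further quantile normalisation (1.49). Gja1, the cumulus gap junction protein, went from 7.19, 7.10 and 5.85 to 2.45, 2.38 and 2.80, a call lost without the narrow MII arrays, and Hsd17b1, a granulosa steroid enzyme, from 7.24, 7.41 and 8.40 to 4.25, 5.66 and 5.99. Of 17 theca, stroma, vessel and blood markers 3 rose (17.6%) and 2 fell (11.8%), 0 and 0 with the spread covariate, and 0 or 1 rose without GV 1, GV 2, GV 3, MII 2 or MII 3, with median levels of 4.21 to 4.47 and 4.24 to 5.25. In such samples fewer cells of a type and less RNA per cell cannot be told apart, and the part of adhering cells in the results was not tested.

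The wild-type arrays allow the same stage change to be measured with amphiregulin present. There 3574 genes changed (21.6%), 1487 higher (8.97%) and 2087 lower (12.6%). Of the genes called higher in the knockout 944 were called higher in wild type, 43.9% of the knockout's list and 63.5% of the wild type's, and of those called lower 1753 were, 69.5% and 84%. Of the knockout's calls 97.3% of the higher and 97.8% of the lower had the same sign in wild type, and the stage changes of all genes correlated at r = 0.86 across genes, which are not independent replicates. The interaction, which tests whether the stage change differs between genotypes, passed for 0 genes by limma (0%), with 772 at an unadjusted p under 0.05 where 829 would be if none differed, and a smallest adjusted p of 0.27, and it passed for 1 gene without MII 1 or MII 3. Its median SE was 0.52, and a p that misses the threshold does not show that the changes are equal.

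The genes with the smallest interaction p were Mrpl58, Nrm, Uimc1, Syt9 and Reep6. The stage change of Mrpl58 was -4.52 in the knockout and -2.54 ± 0.20 in wild type. There it measured 10.83, 10.96 and 11.30 at GV and 8.66, 8.42 and 8.41 at MII. The difference between the changes was -1.98 (95% interval -2.62 to -1.34, adjusted p = 0.27 by limma). Uimc1 went from 9.79, 9.22 and 10.14 to 5.08, 4.04 and 4.82 in the knockout and from 9.26, 9.43 and 9.16 to 7.14, 6.94 and 6.97 in wild type, a difference of -2.81 (interval -3.77 to -1.85, adjusted p = 0.27). The MII arrays of the genotypes do not overlap for either gene. Reep6, an endoplasmic reticulum shaping protein, measured 7.73, 8.0 and 9.07 at GV and 7.03, 7.21 and 7.24 at MII in the knockout, against 6.61, 5.31 and 6.40 and 8.55, 9.92 and 8.44 in wild type, so the signs differ (-1.10 and 2.86). Nrm, an inner nuclear membrane protein, also differed in sign (-1.32 and 0.65), as did Syt9, a synaptotagmin (0.79 and -1.59), at low intensity. None of these passed the limma adjustment, so a genotype difference was not shown for any of them.

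**Figure D5:**
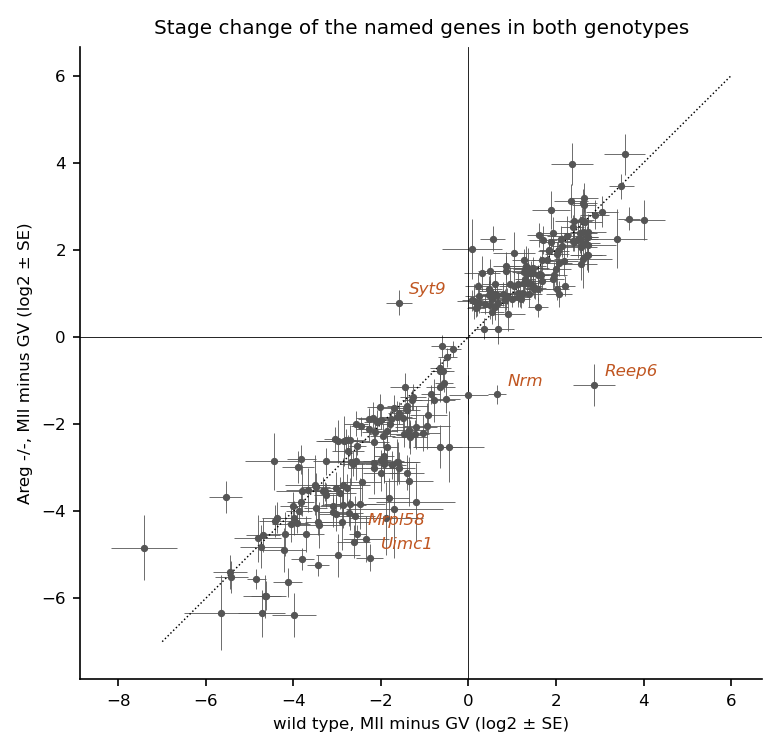
Stage change (MII minus GV, log2 ± SE) of the 260 named genes in wild type (x axis) and Areg -/- (y axis), with a dotted line of equal change and the 5 genes of smallest interaction p labelled. Nearly all points lie in the quadrants of equal sign, and Reep6, Nrm and Syt9 lie outside them.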

How the data were processed

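The deposited values were log2 expression values per probe set from Affymetrix mouse arrays, made by the authors with RMA, which by its usual definition includes quantile normalisation, per the submitters' processing notes. The array holds 23950 probe sets in the table, of which 64 are controls. Of 23886 RefSeq probe sets, 21230 matched 1 gene symbol in the RefSeq gene table and 2656 matched none. The probe set of highest mean over all arrays stood for a gene with several, which left 16579 genes, 3019 of them with more than 1 probe set. Per the labels' protocols, oocyte polysomes were isolated, and RNA was amplified with a kit made for degraded RNA. The molecule field of the labels gives total RNA where the protocols describe a polysome fraction, and the protocols were followed. No counts exist for such arrays, so precision is limited by their number, 3 per group.

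One limma (3.58.1, in R 4.3.3) model with 4 group means was fitted to all 12 arrays on the log2 scale. Its contrasts were MII minus GV in each genotype and the difference between both (interaction), two-sided, with Benjamini-Hochberg adjustment across all 16579 genes and calls at an adjusted p under 0.05. The 15 alternatives and the counts behind each list were computed with the same values. Same-numbered knockout arrays deviated together at r = 0.18, -0.02 and 0.14, so the numbers were not used as pairs. Named genes were the 10 of smallest p per direction with a difference of at least 1 and no overlap of arrays, up to 3 per list and direction, a list of 23 genes and the 5 of smallest interaction p. Members and gene lists were chosen with earlier results of these data known. Sequences came from RefSeq, and protein length was not analysed here. Some genes that met these rules are not reported here.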

Additional observations from a re-analysis of the deposited data

How the results depend on the processing

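The count of genes that changed in the knockout (4672) was 1796 with the spread covariate and 2319 without the 2 narrow MII arrays, and 2882 to 5090 without any 1 array, lowest without GV 1. The count that rose (2150) was 1433 with the knockout arrays alone, 1190 among genes above the median brightness, 951 with the covariate, 892 without the narrow arrays and 1004 to 2583 without any 1 array. The count that fell (2522) was 845 with the covariate, 1427 without the narrow arrays and 1878 to 2507 without any 1 array. The share of calls that were higher was 56.8% after a further quantile normalisation, 53.0% with the covariate, 53.1% with array weights and 32.9% among bright genes. The interaction count of 0 was 1 without the narrow arrays and 0 to 1 without any 1 array. With the replicate number as a block 4967 genes changed, 2339 higher and 2628 lower, 4 of the 247 named calls were lost, and not every array correlated best with its own number. Of the 247, 88 lost their call and 2 turned sign with the covariate, 58 lost it without the narrow arrays and 16 after quantile normalisation. Signs turned for Bcl2l2 (-0.10) and Lyz2 (-0.03) with the covariate, for Areg after quantile normalisation (-0.12), with the covariate (-0.43) and without the narrow arrays (-0.04), for Egfr after quantile normalisation (0.48) and with the mean of probe sets (0.43), for Erbb2 with the covariate (-0.08) and for Kit without MII 1 (-0.25 to 0.50 over the single arrays left out). The cause was not tested. The covariate takes 1 degree of freedom and differs by stage, and leaving out arrays removes samples. Array number limits small changes, since the 95% interval of the median gene was 0.81 wide to either side.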
